A study of Homo sapiens with 12 samples.

Results

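Named enzymes, 10 in all, that remove peroxide or superoxide, or that make and recycle glutathione, were followed by their mRNA in human keratinocytes of skin and gingiva: GPX1, GPX2, GPX3, GPX4, GPX7, GPX8, GSR, GSS, CAT and SOD2. They were taken by gene name from a table of 58735 genes, and all 10 passed the filter on low counts. An 11th entry of the table also carried the name SOD2, overlapped the main SOD2 gene on the same strand and held 0 reads in every library, so it was left aside. HaCaT is an immortalized keratinocyte line from skin and TIGK an immortalized keratinocyte line from gingiva, so each tissue was represented by a single line and tissue cannot be told apart from line. Both lines were grown to confluence in DermaLife K Keratinocyte Complete Medium and were either left untreated or exposed to 5 mM H2O2 for 3 h. The 4 groups, untreated TIGK, H2O2-treated TIGK, untreated HaCaT and H2O2-treated HaCaT, had 3 polyA RNA libraries each. Beyond the immortalization of both lines, no gene edit and no second agent is named for any group.

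Libraries held 30426401 to 49034244 reads assigned to genes, with a median of 34684154.5. All 9 keratinocyte markers were present in every library, with KRT5 at 13200 to 22300 CPM (a depth-normalized read count) and KRT14 at 8050 to 11700. Of 7 fibroblast markers, 4 stayed under 1 CPM in every library and COL1A2 was at 0, while the summed level was 22.2 to 25.8 CPM in TIGK and 8.56 to 11.5 in HaCaT. Of 5 immune cell markers, 4 stayed under 1 CPM in every library, and CD14 reached 3.4. Immune cell markers summed to 2.45 to 3.43 CPM in TIGK and 0 to 0.4 in HaCaT. Melanocyte markers summed to at most 2.59 and endothelial markers to at most 1.65. The part of these fibroblast, immune, melanocyte and endothelial markers in any difference between the lines was not tested. In RNA pooled over a well, fewer cells that express a gene and less RNA per cell cannot be told apart.

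Among the glutathione peroxidases, GPX1 to GPX4 reduce H2O2 and lipid peroxides to water and alcohols, using glutathione as the electron donor. GSS makes glutathione in the last step of its synthesis, and GSR uses NADPH to return the oxidized form to the reduced form. Catalase, encoded by CAT, breaks down H2O2 in peroxisomes without glutathione, and SOD2 turns superoxide into H2O2 in mitochondria. GPX1 to GPX4 are selenoproteins, in which a TGA codon that would normally stop translation is read as selenocysteine at the catalytic site. GPX7 and GPX8, enzymes of the endoplasmic reticulum, carry cysteine at that site.

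This division is visible in the coding sequences, shown here because the members that differed most between the lines fall on both sides of it. Each stretch runs 5′ to 3′ on the coding strand and was taken from GENCODE 44 (GRCh38), with the catalytic codon in capitals and 21 bases on each side. The TGA codons are marked as selenocysteine in that annotation, and the TGC codons of GPX7 and GPX8 were placed by aligning the translated proteins.
GPX1: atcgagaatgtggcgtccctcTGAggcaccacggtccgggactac
GPX2: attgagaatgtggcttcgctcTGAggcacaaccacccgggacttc
GPX3: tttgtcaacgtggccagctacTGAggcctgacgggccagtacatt
GPX4: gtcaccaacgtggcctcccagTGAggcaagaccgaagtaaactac
GPX7: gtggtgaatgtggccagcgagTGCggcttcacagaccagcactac
GPX8: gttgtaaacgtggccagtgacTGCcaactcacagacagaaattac

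The catalytic codon lies in exon 1 of GPX1 (codon 49 of 203, chr3:49358132-49358134, minus strand) and in exon 1 of GPX2 (codon 40 of 190, chr14:64942607-64942609, minus strand). It lies in exon 2 of GPX3 (codon 73 of 226, chr5:151025469-151025471, plus strand) and in exon 3 of GPX4 (codon 73 of 197, chr19:1105403-1105405, plus strand). In the cysteine enzymes it lies in exon 2 of GPX7 (codon 57 of 187, chr1:52606714-52606716, plus strand) and in exon 2 of GPX8 (codon 79 of 209, chr5:55161024-55161026, plus strand). GPX1 and GPX2 were the closest pair, identical at 128 of 190 aligned residues (67.4%), and GPX7 and GPX8 came next with 97 of 185 (52.4%). The other pairs shared 33.7% to 43.1% of aligned residues. Selenocysteine was read as cysteine for these values, so the catalytic site counts as identical between the selenocysteine and the cysteine enzymes.

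More of these genes were called as raised by treatment in HaCaT than in TIGK, and none was called as lowered in either line. Expression was tested with the quasi-likelihood test of edgeR over all 16618 genes with enough reads, and a gene was called when its adjusted p was under 0.01. In TIGK, GPX8 and GSR rose, 2 of 10 members, where 10.2% of all genes rose. In HaCaT, GPX1, GPX4, GPX8, GSR, GSS and CAT rose, 6 of 10 members, where 18.9% of all genes rose and 34.1% changed in either direction. The median log2 change of the members was 0.23 in TIGK and 0.34 in HaCaT, beside 0.01 and 0.04 over all genes tested. The count in TIGK was the less settled, since GSS missed the limit narrowly (adjusted p = 0.0102) and the count was 4 without HaCaT H2O2 replicate 1, a library that helps to set the common spread. It was 5 without the filter on low counts. The 10.2% of all genes belongs to the fit of all libraries with the filter, and no share is given here for these alternatives. A change above 0 was found for 9 of 10 members in TIGK and 7 of 10 in HaCaT, beside 50.8% and 53.1% of all genes. In the test of the difference between the 2 responses, 0 of 10 members passed, where 5.3% of all genes did.

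The lines also differed before treatment. Untreated HaCaT had more GPX1, GPX2, GPX4 and CAT mRNA, and untreated TIGK more GPX7, GPX8, GSS and SOD2, which makes 8 of 10 members called, where 59.9% of all genes were called, 29.1% higher in HaCaT and 30.8% higher in TIGK. After H2O2 the calls stood at 4 of 10 higher in HaCaT and 2 of 10 higher in TIGK (GPX7 and SOD2), where 30.2% and 29.8% of all genes were called in these directions and 60% in either. The 4 genes higher in HaCaT were GPX1, GPX2, GPX4 and CAT, as before treatment. The median over the members was 0.09 before and -0.02 after treatment, HaCaT minus TIGK in log2, and over all genes -0.01 and 0.02. These counts share libraries with those of the treatment response and are not independent of them.

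**Figure D1:**
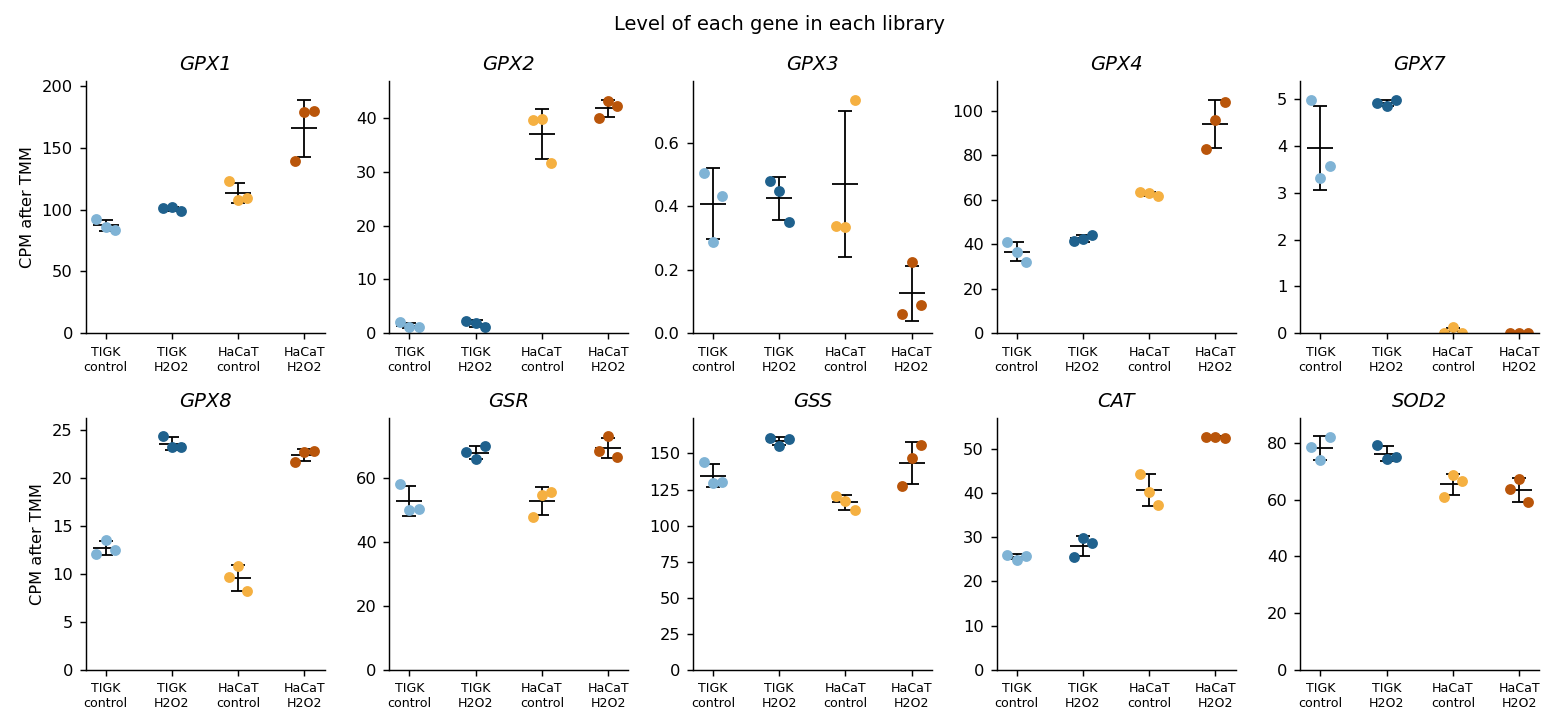
Level of each of the 10 genes in every library, in CPM after TMM normalization, for untreated and H2O2-treated TIGK and HaCaT. Points are libraries and bars the mean ± SD of 3. GPX2 lay at 31.7 CPM or above in every HaCaT library and at 2.33 or below in every TIGK library, and GPX7 showed the opposite pattern.

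The question of how the glutathione peroxidases were made up in each line was addressed on a per-length scale, as CPM per kilobase of gene model. GPX1 held the largest share of the summed family level in all groups, 71.2% ± 1.31 in untreated TIGK and 57.6% ± 1.89 in untreated HaCaT (SD, n = 3). The shares of GPX4 were close to each other, at 21% ± 1.12 and 22.6% ± 0.988. GPX2 accounted for 17.9% ± 1.67 of the family level in untreated HaCaT and 1.07% ± 0.315 in untreated TIGK. GPX7 and GPX8 together make the endoplasmic reticulum arm of the family, and their shares were 2.71% ± 0.446 and 3.82% ± 0.406 in untreated TIGK. In untreated HaCaT they were 0.0176% and 1.79% ± 0.231. The summed family level was 86 ± 5.95 CPM per kilobase in untreated TIGK, 102 ± 0.817 in treated TIGK, 138 ± 8.21 in untreated HaCaT and 197 ± 22.5 in treated HaCaT. Shares of a sum move against each other by construction, so they were given as a description with no test.

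**Figure D2:**
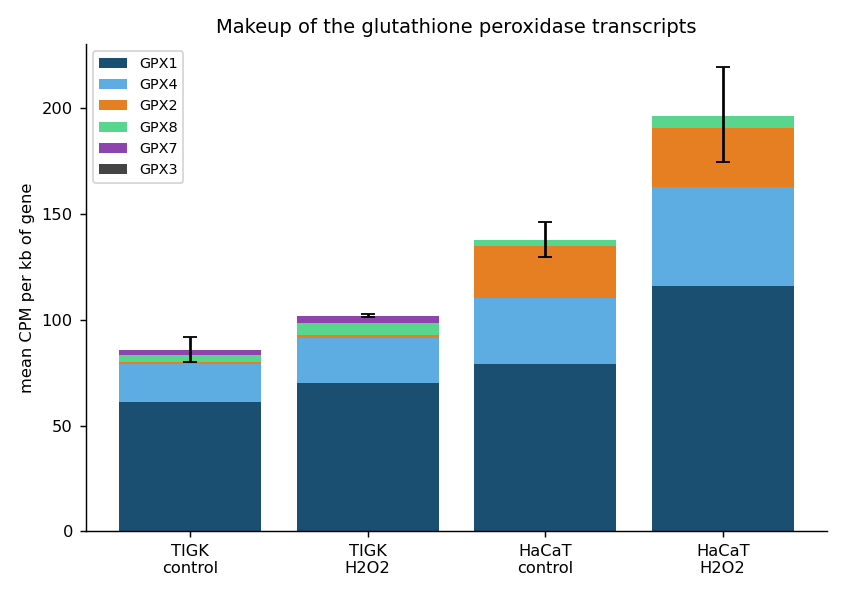
Make-up of the summed glutathione peroxidase level in each group, as the level per kilobase of gene model (CPM per kb, mean of 3 libraries), with bars for the SD of the sum. GPX1 forms the largest part in all 4 groups, and GPX2 is visible as a large part in HaCaT, where it held 17.9% untreated and 14.3% after H2O2.

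GPX1 (chr3:49357171-49358600) encodes the abundant cytosolic and mitochondrial peroxidase. Its 3 untreated TIGK libraries read 92.5, 86.3 and 83.9 CPM, and the treated TIGK libraries 101, 102 and 99. The untreated HaCaT libraries read 123, 108 and 109 CPM, and the treated ones 139, 179 and 180. No group overlapped the next in this order, although HaCaT H2O2 replicate 1 sat well below its companions. GPX1 rose in HaCaT by 0.55 in log2 (SE 0.0805, 1.46-fold, edgeR adjusted p = 2.52e-05). In TIGK the change was 0.2 (SE 0.0812, edgeR adjusted p = 0.0623), and it passed the limit without HaCaT H2O2 replicate 1 (0.00472) and when the TIGK groups were fitted alone (0.00745). HaCaT stood above TIGK by 0.37 in log2 before treatment (edgeR adjusted p = 0.000445) and by 0.72 after it (1.79e-07). The table classes GPX1 as a polymorphic pseudogene, a class this annotation gives to genes with an inactive allele in some genomes. Its processed copies drew few reads, 102 in all libraries for GPX1P1 and 0 for GPX1P2, beside 50438 for GPX1.

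GPX4 (chr19:1103926-1106791) encodes the peroxidase that reduces lipid peroxides within membranes and holds ferroptosis in check. The untreated TIGK libraries read 40.9, 36.6 and 32.2 CPM and the treated TIGK libraries 41.3, 42.4 and 44.1. Untreated HaCaT libraries read 63.6, 63 and 61.6 CPM, and treated ones 82.8, 96 and 104. The groups did not overlap, and the gap between treated and untreated was wide in HaCaT and narrow in TIGK. GPX4 rose in HaCaT by 0.59 in log2 (SE 0.0828, 1.5-fold, edgeR adjusted p = 1.63e-05), while the value in TIGK was 0.22 (SE 0.0856, edgeR adjusted p = 0.0521) and passed without the filter on low counts (0.00608). HaCaT was above TIGK by 0.78 before treatment (edgeR adjusted p = 1.3e-07) and by 1.15 after it (4.59e-10), or 1.71-fold and 2.21-fold.

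GPX2 (chr14:64939152-64942905), the epithelial peroxidase best known from the gut, separated the lines. The 6 TIGK libraries read 1.99, 1.11 and 1.1 CPM untreated and 2.33, 1.78 and 1.13 treated. The 6 HaCaT libraries read 39.8, 39.8 and 31.7 CPM untreated and 40.1, 43.2 and 42.3 treated. GPX2 was 26.4-fold higher in untreated HaCaT (log2 4.72, SE 0.192, edgeR adjusted p = 6.55e-14) and 24.6-fold higher in treated HaCaT (log2 4.62, SE 0.186, edgeR adjusted p = 5.82e-14). Treatment left it within the test's spread in TIGK (0.27, 95% interval -0.25 to 0.8) and in HaCaT (0.18, -0.12 to 0.47). CHURC1 overlaps GPX2 on the opposite strand and was also higher in HaCaT, at 44.8 to 46.1 CPM untreated against 17.9 to 18.4 in untreated TIGK. The sources used here do not say whether counting used strand, so reads from the 2 genes may not be told apart.

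Of the 8 members with an entry in the RefSeq promoter table (GRCh38.p14, a window of fixed length around each start), GPX2 alone held the core of the antioxidant response element, TGACNNNGC, searched on both strands. This element is bound by NRF2, the factor that drives many antioxidant genes, and 13.3% of all 35116 promoters of that length hold the same letters. The AP-1 site TGANTCA was in none of the 13 promoters of these 8 members and in 7.71% of all promoters. GSR and GSS had no entry. The stretch of the GPX2 promoter at chr14:64942835-64942891 is shown on the gene's minus strand, with the match in capitals. The match reads on the opposite strand, 122 to 114 bases before the RefSeq start. This stretch lies within the span of the counted GPX2 gene model (chr14:64939152-64942905), whose start differs from the RefSeq start.
GPX2 promoter: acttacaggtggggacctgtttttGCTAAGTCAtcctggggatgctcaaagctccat
A match of letters is a description and not a measured binding site.

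GPX7 (chr1:52602372-52609051), an endoplasmic reticulum peroxidase that supports oxidative protein folding, showed the opposite line pattern to GPX2. TIGK libraries read 4.99, 3.32 and 3.57 CPM untreated and 4.93, 4.85 and 4.98 treated. Untreated HaCaT libraries held 0, 4 and 0 reads, and treated HaCaT libraries 0 reads each, so all 6 were at or near the floor. Untreated TIGK had 418 reads summed over its libraries and untreated HaCaT 4, which is a ratio of 116 after correction for depth, with a 95% counting interval of 45 to 428. The 4 reads all came from HaCaT control replicate 2. Without it untreated HaCaT held 0 reads, and the level in untreated TIGK was at least 54.7-fold higher, taking a floor of 3 reads per HaCaT library. In treated cells the level in TIGK was at least 53.3-fold higher by the same floor, 0.0922 CPM. Both line differences passed (edgeR adjusted p = 3.34e-09 and 1.18e-09). Intervals and floors of this kind cover counting error only. The response of TIGK was 0.31 (95% interval -0.28 to 0.91, edgeR adjusted p = 0.417), and no fold was given for HaCaT.

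GPX8 (chr5:55160118-55167071), the membrane-bound relative of GPX7, had the largest increase of the members in both lines. It read 12, 13.5 and 12.5 CPM in untreated TIGK and 24.3, 23.2 and 23.2 in treated TIGK. HaCaT read 9.67, 10.8 and 8.17 CPM untreated and 21.6, 22.7 and 22.8 treated. Treated and untreated libraries stood clear of each other in both lines. GPX8 rose by 0.89 in log2 in TIGK (SE 0.0973, 1.86-fold, edgeR adjusted p = 1.1e-06) and by 1.23 in HaCaT (SE 0.0994, 2.35-fold, edgeR adjusted p = 2.14e-08). Untreated HaCaT was below untreated TIGK by 0.41 in log2 (edgeR adjusted p = 0.00141), a call that was lost without TIGK control replicate 2 (0.0128) or HaCaT control replicate 3 (0.0124). After treatment the difference was -0.07 with a 95% interval of -0.27 to 0.13 (edgeR adjusted p = 0.511). CDC20B, which overlaps GPX8, drew at most 0.262 CPM in any library.

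GPX3 (chr5:151020438-151028993), the secreted peroxidase of plasma, was barely expressed. Its libraries held 18, 10 and 15 reads in untreated TIGK, 15, 17 and 16 in treated TIGK, 16, 11 and 27 in untreated HaCaT and 2, 7 and 3 in treated HaCaT. Treated HaCaT lay below the other groups without overlap. The change in HaCaT was -1.89 in log2 (SE 0.582, 95% interval -3.11 to -0.67) and missed the limit (edgeR adjusted p = 0.0123). It passed with DESeq2 (0.00919) and without HaCaT H2O2 replicate 2, where it was -2.58 (0.00658). The difference between the treated lines, -1.75 with an edgeR adjusted p of 0.0132, passed without the same replicate (-2.44, 0.00533) and with library totals in place of TMM (-1.82, 0.00982).

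GSR (chr8:30678061-30727999), the glutathione reductase, rose by similar amounts in both lines. TIGK libraries read 58.3, 50.1 and 50.5 CPM untreated and 68.2, 65.9 and 70 treated. HaCaT libraries read 47.7, 54.7 and 55.8 CPM untreated and 68.5, 73.1 and 66.8 treated. All treated libraries were above all untreated ones. GSR rose by 0.36 in log2 in TIGK (SE 0.0728, 1.28-fold, edgeR adjusted p = 0.000765) and by 0.4 in HaCaT (SE 0.0729, 1.32-fold, edgeR adjusted p = 0.000224). The lines differed by -0.01 before treatment (95% interval -0.16 to 0.15) and by 0.03 after it (-0.12 to 0.18), HaCaT minus TIGK, and the sign of both values changed with the scaling or filter.

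GSS (chr20:34928433-34956027), glutathione synthetase, rose in HaCaT and came just short of the limit in TIGK. TIGK libraries read 144, 130 and 130 CPM untreated and 161, 155 and 160 treated. HaCaT libraries read 121, 117 and 111 CPM untreated and 127, 147 and 156 treated. Treated and untreated libraries did not overlap within either line. GSS rose in HaCaT by 0.3 in log2 (SE 0.0672, 1.23-fold, edgeR adjusted p = 0.00124), a call lost without HaCaT control replicate 3 (0.0105) and when the HaCaT groups were fitted alone (0.0112). In TIGK the change was 0.24 (SE 0.0669, edgeR adjusted p = 0.0102), and it passed under 8 of 18 alternatives, among them DESeq2 (0.00391) and the fits without TIGK control replicate 1 (0.00597), HaCaT H2O2 replicate 1 (0.00115) or HaCaT H2O2 replicate 3 (0.00271). Untreated HaCaT was below untreated TIGK by 0.21 (edgeR adjusted p = 0.00894), and 11 of 18 alternatives lost this call, with adjusted p from 0.0116 to 0.0537, while the range over all 18 was 0.000472 to 0.0537. Leaving out any of 9 libraries was enough, namely every untreated library of HaCaT, every treated library of TIGK, TIGK control replicates 1 and 2 and HaCaT H2O2 replicate 2. Between the treated lines the value was -0.15 (edgeR adjusted p = 0.0606), which passed without HaCaT H2O2 replicate 3 (0.00802).

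CAT (chr11:34438925-34472062), the peroxisomal catalase, was higher in HaCaT at both states. TIGK libraries read 26, 24.9 and 25.7 CPM untreated and 25.4, 29.9 and 28.6 treated, with overlap between the 2 groups. HaCaT libraries read 44.4, 40.3 and 37.3 CPM untreated and 52.7, 52.7 and 52.4 treated, without overlap. CAT rose in HaCaT by 0.37 in log2 (SE 0.075, 1.29-fold, edgeR adjusted p = 0.000556). The change in TIGK was 0.13 (95% interval -0.03 to 0.29, edgeR adjusted p = 0.197). HaCaT stood above TIGK by 0.67 untreated (1.59-fold, edgeR adjusted p = 2.51e-07) and by 0.91 treated (1.88-fold, edgeR adjusted p = 3.15e-09).

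SOD2 (chr6:159669057-159745186), the mitochondrial manganese superoxide dismutase, did not pass the test in either line. Its libraries read 78.5, 74 and 82.2 CPM in untreated TIGK and 79.2, 74.2 and 75.1 in treated TIGK. HaCaT read 61.1, 68.6 and 66.4 CPM untreated and 63.9, 67.3 and 59 treated. Treated and untreated libraries overlapped in both lines, and every TIGK library was above every HaCaT library. The log2 change was -0.04 in TIGK (95% interval -0.17 to 0.1) and -0.04 in HaCaT (-0.18 to 0.09). HaCaT was below TIGK by 0.26 untreated (edgeR adjusted p = 0.00158) and by 0.26 treated (edgeR adjusted p = 0.00141), and the untreated call was lost without HaCaT control replicate 1 (0.0172). WTAP overlaps SOD2 on the opposite strand with 41074 reads in all beside 30760 for SOD2, and was likewise lower in HaCaT, at 76.4 to 78 CPM untreated against 112 to 116 in untreated TIGK. Its part in the line difference of SOD2 was not tested.

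**Figure D3:**
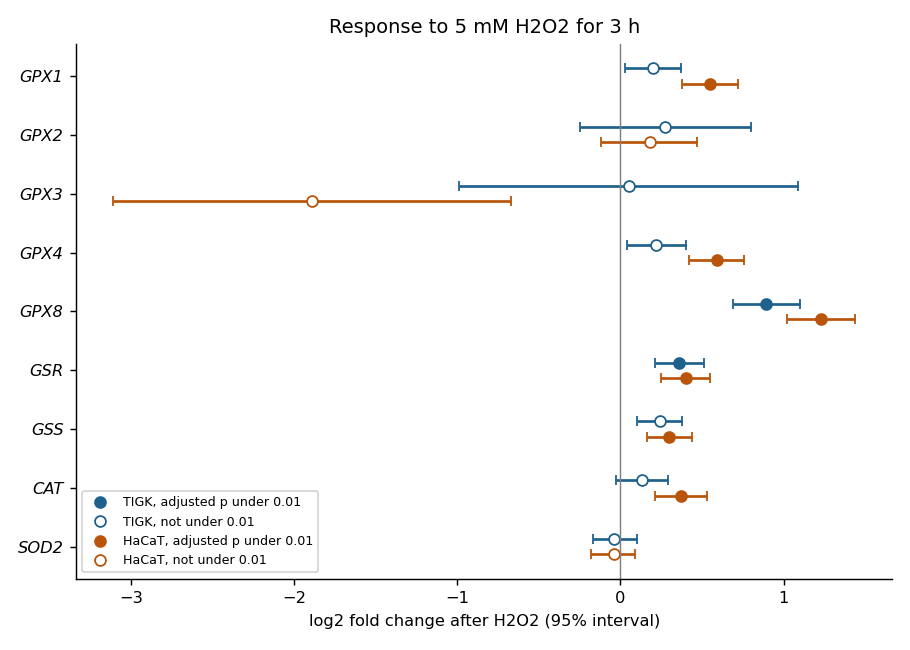
Log2 change after 5 mM H2O2 for 3 h in TIGK and HaCaT, with the 95% interval of the edgeR fit. Filled points have an adjusted p under 0.01, and GPX7 is left out because HaCaT held 0 to 4 reads per library. GPX8 has the largest increase in both lines, at 0.89 and 1.23, and SOD2 lies at -0.04 in both.

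**Figure D4:**
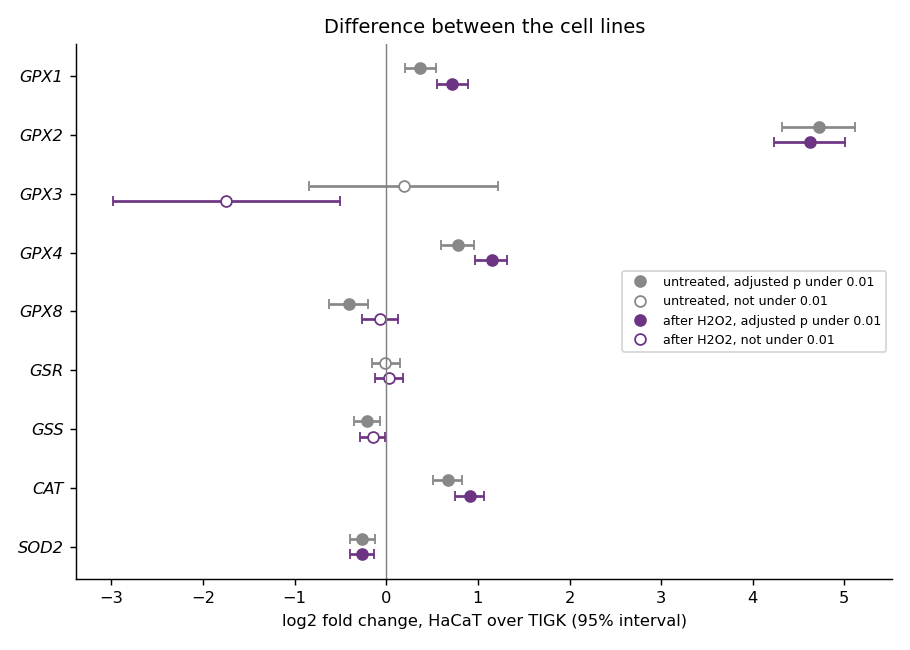
Log2 difference between HaCaT and TIGK, untreated and after H2O2, with the 95% interval of the edgeR fit. Positive values mean higher in HaCaT, filled points have an adjusted p under 0.01, and GPX7 is left out because HaCaT held 0 to 4 reads per library. GPX2 lies at 4.72 and 4.62, far from the other genes shown, and GSR at -0.01 and 0.03.

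Whether the lines responded by different amounts was tested as the difference of their log2 changes, TIGK minus HaCaT. With edgeR 0 of 10 members passed the limit, where 5.3% of all genes did (2.32% with the higher change in TIGK and 2.98% with the higher change in HaCaT), and DESeq2 also called 0, while 5 members had an unadjusted p under 0.05. The smallest adjusted p-values were those of GPX4 (difference -0.37, 95% interval -0.62 to -0.12, edgeR adjusted p = 0.0498) and GPX1 (-0.35, -0.59 to -0.11, edgeR adjusted p = 0.0523). The value of GPX1 passed without HaCaT H2O2 replicate 1, the library with its lowest treated HaCaT level (-0.4, adjusted p = 0.00443). GPX8 (-0.34, -0.63 to -0.05) and CAT (-0.24, -0.47 to -0.01) pointed the same way with edgeR adjusted p-values of 0.127 and 0.168, and GPX3 the other way (1.94, 0.33 to 3.55, adjusted p = 0.113). The intervals of GSR (-0.25 to 0.18), GSS (-0.27 to 0.13) and SOD2 (-0.19 to 0.2) spanned 0. The larger number of calls in HaCaT was thus not matched by a member whose response was shown to differ between the lines.

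Per kilobase of gene model, the order of the members' levels in untreated TIGK ran from GPX1 (61.2 CPM per kilobase) through GSS (21.8), GPX4 (18.1), GSR (14.1), CAT (7.12), SOD2 (4.74), GPX8 (3.28), GPX7 (2.34) and GPX2 (0.934) to GPX3 (0.129). In untreated HaCaT the order began with GPX1 (79.3), GPX4 (31.1), GPX2 (24.7), GSS (18.8), GSR (14) and CAT (11.3), followed by SOD2 (3.96), GPX8 (2.47), GPX3 (0.148) and GPX7 (0.024). GPX2 thus stood next to last in TIGK and in the third place in HaCaT. This order depends on the length of each gene model, which was 16493 bases for SOD2 and 1430 for GPX1. Before division by length, SOD2 at 78.2 CPM lay close to GPX1 at 87.6 CPM in untreated TIGK. The length of the transcripts present in these cells was not measured.

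Most of the genes that make, import and break down glutathione differed between the untreated lines, as did most genes tested. Of 17 genes listed for this, 14 were tested, and 8 were lower and 4 higher in untreated HaCaT, where 30.8% and 29.1% of all genes were, with a median log2 difference of -0.81 beside -0.01 over all genes tested. After H2O2 the counts were again 8 lower and 4 higher, where 29.8% and 30.2% of all genes were, with a median of -0.62 beside 0.02. CHAC1, which degrades glutathione in the cytosol, was at 22.5 ± 2.02 CPM in untreated TIGK and 0.417 ± 0.225 in untreated HaCaT (SD, n = 3), a log2 difference of -5.67 (edgeR adjusted p = 1.3e-14). GGT6, a member of the gamma-glutamyltransferase family, differed by -3.15 (edgeR adjusted p = 6.31e-09). The cystine importer formed by SLC7A11 and SLC3A2, which brings in the cysteine that limits glutathione synthesis, was also lower in untreated HaCaT, by -1.77 and -1.52 in log2. SLC7A11 and SLC3A2, and the genes named next, were chosen for mention after their values were seen. The 4 genes higher in untreated HaCaT were GCLM (0.79), ABCC1 (0.79), GGCT (0.58) and CNDP2 (0.24).

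After H2O2, 2 of these 14 genes rose and 3 fell in TIGK, where 10.2% of all genes rose and 12.9% fell, and 3 rose and 3 fell in HaCaT, where 18.9% rose and 15.2% fell. SLC7A11 fell in both lines, from 161 ± 15.4 to 83.7 ± 2.13 CPM in TIGK (log2 -0.94, edgeR adjusted p = 4.3e-09) and from 47.2 ± 2.63 to 30.8 ± 1.56 in HaCaT (-0.61, edgeR adjusted p = 2.1e-06). GCLM, the modifier subunit of the rate-limiting enzyme of glutathione synthesis, fell by 0.34 in TIGK (edgeR adjusted p = 0.00358) and by 0.35 in HaCaT (edgeR adjusted p = 0.00141). The TIGK call was lost without any 1 of 5 TIGK libraries, control replicates 1 and 3 and the 3 treated ones, with adjusted p up to 0.0279, and the HaCaT call without HaCaT control replicate 3 (0.0128) or HaCaT H2O2 replicate 2 (0.011). GCLC, the catalytic subunit of the same enzyme, was not called, at 0.05 in TIGK (edgeR adjusted p = 0.473) and 0.12 in HaCaT (0.0878). ABCC1, an exporter of glutathione conjugates, fell by 0.47 in HaCaT (edgeR adjusted p = 4.45e-05) and by 0.31 in TIGK (edgeR adjusted p = 0.00305), where the call was lost without TIGK control replicate 2 or 3 or TIGK H2O2 replicate 1 or 2, with adjusted p up to 0.0216. The HaCaT value of GCLM, the values of GCLC and the TIGK value of ABCC1 were added after they were seen. GSR and, in HaCaT, GSS thus rose while the cystine importer subunit SLC7A11 fell.

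**Figure D5:**
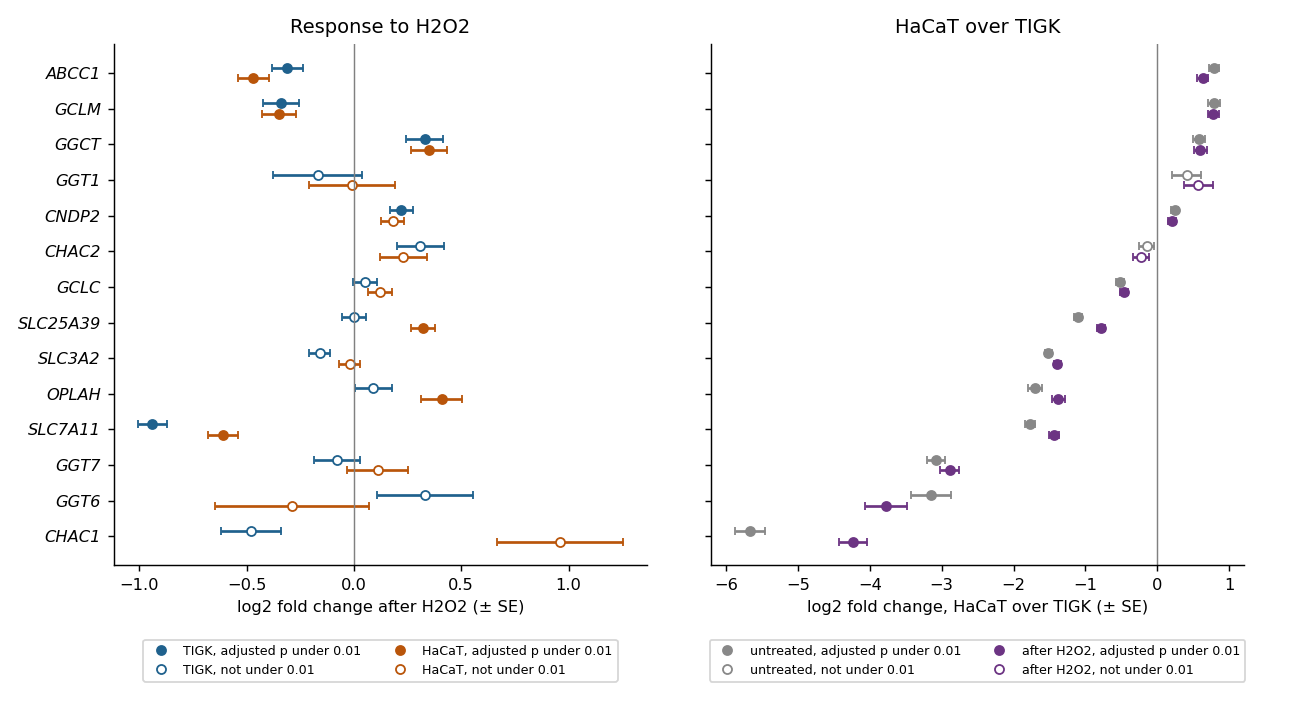
Log2 changes (± SE) of the 14 tested genes of glutathione synthesis, transport and breakdown. The left panel shows the response to H2O2 in TIGK and HaCaT and the right panel HaCaT over TIGK, with filled points for an adjusted p under 0.01. SLC7A11 fell in both lines (-0.94 and -0.61), and CHAC1 has the largest line difference (-5.67 untreated).

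GSR draws on NADPH, and of 9 tested genes of NADPH supply 1 rose in TIGK and 6 in HaCaT, with 0 falling in either line by edgeR, beside 10.2% and 18.9% of all genes that rose and 12.9% and 15.2% that fell. The median log2 change was 0.12 in TIGK and 0.24 in HaCaT. IDH1, the cytosolic isocitrate dehydrogenase, rose in both, by 0.27 in TIGK (edgeR adjusted p = 0.00149) and by 0.4 in HaCaT (2.63e-05). PGLS, the lactonase of the pentose phosphate pathway, rose in HaCaT by 0.56 (edgeR adjusted p = 0.000123). Between untreated lines 3 genes were higher and 5 lower in HaCaT, where 29.1% and 30.8% of all genes were. The largest differences were those of ME1, the cytosolic malic enzyme (-0.91, edgeR adjusted p = 1.23e-09), and NNT, the mitochondrial transhydrogenase (-0.72, edgeR adjusted p = 2.64e-09).

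Glutaredoxins, which use glutathione to reduce disulfides or to carry iron-sulfur clusters, numbered 4, all tested. In TIGK 0 passed with edgeR, and in HaCaT 2 rose, where 18.9% of all genes did, GLRX5 by 0.42 (edgeR adjusted p = 4.35e-05) and GLRX3 by 0.3 (edgeR adjusted p = 0.00389). The call of GLRX3 was lost under 7 of 18 alternatives, 6 of them fits without TIGK control replicate 2, TIGK H2O2 replicate 2 or 3, HaCaT control replicate 2 or 3 or HaCaT H2O2 replicate 3, with adjusted p up to 0.0254. Of the remaining glutathione peroxidases and superoxide dismutases, 2 of 5 listed genes were tested. SOD1, the cytosolic superoxide dismutase, rose in HaCaT by 0.42 (edgeR adjusted p = 0.00177), from 94.8 ± 6.28 to 127 ± 20.2 CPM, and the call was lost without HaCaT control replicate 3 (0.0145). Untreated HaCaT was below untreated TIGK in SOD1 by 0.46 (edgeR adjusted p = 0.000381). CCS, the copper chaperone of SOD1, was lower in HaCaT by 0.84 untreated (edgeR adjusted p = 1.08e-07).

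Over all 12 libraries the members fell into blocks of like pattern, which mostly follow the difference between the lines and were given without a test. The log2 levels of GPX4 and CAT correlated with r = 0.97, those of GPX1 and GPX4 with 0.96, and those of GPX2 and GPX7 with -0.97. GPX8, which followed treatment, correlated with GSR at 0.86 and with GSS at 0.85. The gene most like GPX8 in these libraries was EGR1 (r = 0.9794), an immediate early transcription factor, followed by HSPA1A (0.9781), an inducible heat shock protein. The gene most like GPX2 was SLC39A13 (0.996), that most like GPX4 was TIMP1 (0.9948) and that most like GPX7 was CLDN11 (0.9997). GPX7 held 0 to 4 reads per HaCaT library, so with HaCaT at or near the floor its r mostly follows the line difference. All of these points share the same libraries and the same 4 groups.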

How the data were processed

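RNA of 12 libraries was measured by polyA RNA-seq. The authors deposited raw read counts per gene on GRCh38. Per the labels, tools named in the submitters' processing notes include HISAT2 2.0.5, StringTie 1.3.3b and featureCounts 1.5.0-p3. The extract protocol names HISAT2 2.0.0 instead, so these descriptions disagree. The annotation release, strand setting and treatment of multi-mapped reads are not given in the sources used here. The deposited tables of the authors' own comparisons hold fold changes and adjusted p-values and were not used.

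Members and lists were chosen with earlier results of these data known. Groups came from the sample titles and labels, where some treatment labels write another formula for what appears to be H2O2. Genes whose mean raw count reached 10 were fitted in R 4.3.3 with edgeR 4.0.16 (quasi-likelihood, TMM, 1 mean per group over all 12 libraries, factors 0.962 to 1.04), with Benjamini-Hochberg adjustment and a limit of 0.01. The scripts were tested on simulated data. CPM values are read counts normalized for depth with TMM factors, per kilobase where stated. Correlations used log2 CPM with a prior count of 2. Named list genes were the 2 with the largest change per list and comparison among those called without overlap of libraries. Alternatives were DESeq2 1.42.0, its size factors in edgeR, library totals, no filter, groups fitted alone, a limit of 0.05, a replicate block, and each library left out. Libraries of a group differed by more than counting noise (chi-square per degree of freedom 4.53 to 29.7), so none was merged. Nothing states that replicates are separate cultures beyond wells of a plate, so p-values measure the spread between these samples, which may be technical. Sequences came from GENCODE 44 and RefSeq and were read with Biopython 1.88, and figures were drawn with matplotlib 3.10.9.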

Additional observations from a re-analysis of the deposited data

Results flagged for a closer look

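None of the 10 enzymes met a rule for a closer look. Among the listed genes of their pathways 2 did, because the response to H2O2 differed between the lines by the edgeR test of the difference itself. They were 1 of 14 tested genes of glutathione synthesis and turnover and 1 of 11 tested NF-kB targets, where 5.3% of all genes passed. No gene of the other pathway lists passed this test. CHAC1, the glutathione-degrading enzyme, went from 22.5 ± 2.02 to 16.2 ± 0.853 CPM in TIGK and from 0.417 ± 0.225 to 0.86 ± 0.159 CPM in HaCaT (SD, n = 3), a difference of -1.44 in log2 (edgeR adjusted p = 0.00688). This call was lost in 9 of the fits that left out a single library, with adjusted p up to 0.0285, those without TIGK control replicate 1 or 2, any TIGK H2O2 library, HaCaT control replicate 2 or 3 and HaCaT H2O2 replicate 1 or 2. ICAM1, an adhesion molecule induced by NF-kB, went from 25.5 ± 1.54 to 24.3 ± 0.267 CPM in TIGK and from 0.679 ± 0.255 to 1.52 ± 0.135 CPM in HaCaT, a difference of -1.18 (edgeR adjusted p = 0.00306). It was lost in 6 such fits, with adjusted p up to 0.0132, those without TIGK control replicate 2, TIGK H2O2 replicate 2 or 3, HaCaT control replicate 2 or 3 and HaCaT H2O2 replicate 2. Both genes were low in HaCaT, at most 1.04 CPM for CHAC1 and 1.67 CPM for ICAM1 in any library. The part of these low levels in the differences was not tested.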

How the results depend on the processing

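With 3 libraries per group and 1 line per tissue, small changes lie near the limit of 0.01. The count of members that rose in TIGK, 2, was 5 without the filter on low counts and 4 with the groups fitted alone. The count that fell in HaCaT, 0, was 1 with DESeq2 and 1 at a limit of 0.05. The count lower in treated HaCaT than in treated TIGK, 2, was 4 with library totals, and that of the difference of responses, 0, was 1 at a limit of 0.05. The share of all genes called is given for the main fit only, so these counts have no share beside them. The cause of these moves was not tested. With library totals in place of TMM, mean levels moved by more than 1 SD in treated TIGK for GPX1 (104 CPM), GPX7 (5.08), GPX8 (24.3), GSR (70.2) and GSS (164), in untreated HaCaT for GPX4 (60.7) and in treated HaCaT for CAT (51.5). The sign of GSR turned for HaCaT minus TIGK untreated (0.02 without the filter), for HaCaT minus TIGK after H2O2 (0 with DESeq2, 0 with its size factors in edgeR, -0.05 with library totals) and for the difference of responses (0.02 without the filter).

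Leaving out each library in turn gave 2 to 4 members rising and 0 falling in TIGK, 5 to 6 rising and 0 to 1 falling in HaCaT, 4 higher and 2 to 4 lower in untreated HaCaT, 4 higher and 2 to 3 lower in treated HaCaT, and 0 higher and 0 to 1 lower in the difference of responses. The count of 4 in TIGK and that of 1 in the difference came without HaCaT H2O2 replicate 1, that of 1 falling in HaCaT without HaCaT H2O2 replicate 2, and that of 2 lower in untreated HaCaT without TIGK control replicate 2, HaCaT control replicate 1 or HaCaT control replicate 3. Signs turned in these fits for the TIGK response of GPX3 (-0.13 to 0.23) and SOD2 (-0.07 to 0.01), the HaCaT response of SOD2 (-0.09 to 0.01), the untreated line difference of GPX3 (-0.27 to 0.4) and GSR (-0.05 to 0.07), the treated line difference of GSR (-0.04 to 0.06) and the difference of responses of GPX2 (-0.14 to 0.44), GSR (-0.08 to 0.05), GSS (-0.09 to 0.01) and SOD2 (-0.05 to 0.09). The HaCaT response of GPX7, with HaCaT at or under the floor, has no fold and entered none of the alternatives. None of the values with a turned sign passed the limit in the fit of all libraries.

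Same-numbered libraries did not deviate together (r from -0.03 to 0.03, best match in 3 of 12 pairs), and the main fit treated the numbers as names only. A replicate block gave 2 members rising in TIGK, 6 rising in HaCaT, 4 higher and 3 lower in untreated HaCaT, 4 higher and 2 lower in treated HaCaT, 0 falling in either line and 0 in the difference of responses. GSS, with an adjusted p of 0.0186, was the member that left the lower genes of untreated HaCaT under the block.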

Other observations

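Genes that insert selenocysteine, on which GPX1 to GPX4 depend, differed between the lines in both directions. Of 9 tested genes 3 were higher and 5 lower in untreated HaCaT by edgeR, where 29.1% and 30.8% of all genes were. EEFSEC, the elongation factor that delivers the selenocysteine tRNA, was at 7.48 ± 1.06 CPM in untreated TIGK and 32.7 ± 0.312 in untreated HaCaT (SD, n = 3, log2 2.13, edgeR adjusted p = 6.67e-13). SECISBP2, which binds the element that recodes the TGA codon, was higher in untreated HaCaT by 1.31 (edgeR adjusted p = 1.24e-11). Among the genes lower in untreated HaCaT was SEPHS2, which makes the selenium donor (-0.85, edgeR adjusted p = 6.75e-11), chosen for mention after its value was seen. After H2O2, EEFSEC rose by 0.62 in TIGK (edgeR adjusted p = 0.000139) and by 0.55 in HaCaT (8.29e-05).

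Of 10 tested genes of peroxisomal protein import, the route by which catalase reaches its organelle, 2 rose in TIGK, where 10.2% of all genes rose, and 3 rose and 1 fell in HaCaT, where 18.9% rose and 15.2% fell. PEX2, a ubiquitin ligase of the import receptor, rose from 27.1 ± 2.84 to 48.2 ± 0.428 CPM in TIGK (log2 0.83, edgeR adjusted p = 5.99e-07) and from 10.4 ± 0.258 to 21.9 ± 2.32 in HaCaT (1.07, edgeR adjusted p = 5.31e-08). PEX6, an ATPase that recycles the receptor, rose by 0.61 in TIGK (edgeR adjusted p = 5.09e-05) and by 0.58 in HaCaT (3.85e-05).

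SOD2 is a known target of NF-kB, and of 11 other tested NF-kB targets 5 fell and 0 rose in TIGK, where 12.9% of all genes fell, while 1 rose and 2 fell in HaCaT, where 18.9% rose and 15.2% fell. TNFAIP3, a feedback inhibitor of NF-kB, fell in both lines, by 0.74 in TIGK (edgeR adjusted p = 6.7e-07) and by 0.84 in HaCaT (edgeR adjusted p = 1.08e-07). ICAM1 rose in HaCaT by 1.11 from a low level (edgeR adjusted p = 0.000294), a call lost with the HaCaT groups fitted alone (0.0182).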
